A study of Homo sapiens with 12 samples.

Results

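The genes described here are those of cholesterol synthesis, of cholesterol transport and of the fatty acid enzymes that the SREBP transcription factors control. A list of 32 genes named them, and it was chosen with earlier results of these data known. Of the 32, 29 had a value of their own among the 19775 genes measured. CYP51A1, the lanosterol demethylase, and FADS1, a fatty acid desaturase, were read only by probe sets that carry several gene symbols, and FDFT1, squalene synthase, by no named probe set. These 3 genes have no value below. The 29 measured genes are called members in what follows. No filter on low levels was used, so none was left out for being dim.

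The cells were U-87 MG, an established human glioma line, and carried a stably transfected hairpin RNA. There were 4 groups of 3 arrays, from shp105 cells with TMZ, shp105 cells with DMSO, shControl cells with TMZ and shControl cells with DMSO. The shp105 hairpin targets p105, from which the NF-kB subunit p50 is cut, and shControl is the control hairpin. TMZ is temozolomide, a DNA-methylating drug used against glioma, given at 100 uM for 16 h, and DMSO is its vehicle. All 4 groups share the parental line and a hairpin construct. The labels call the replicates biological and do not say whether a line is 1 clone or a pool, or which promoter drives the hairpin. The p-values therefore measure the spread between these arrays, and a difference between the lines cannot be told apart from a difference between 2 independently derived cell populations. The study asks how glioma cells with intact or reduced NF-kB respond to the drug.

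Cells make cholesterol from acetyl-CoA. The mevalonate steps build isoprenoid units, these are joined to squalene, and the sterol steps close the rings of squalene and trim them to cholesterol. When membrane sterol falls, the escort protein SCAP carries the SREBP precursors from the endoplasmic reticulum to the Golgi, where proteases release the active transcription factors. INSIG proteins hold SCAP and the precursors back when sterol is plentiful. SREBF2 mainly drives the cholesterol enzymes and SREBF1 the fatty acid enzymes, and INSIG1 is itself a target of the pathway.

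Levels are log2 values of 1 probe set per gene, and differences are log2 differences. Levels of different genes are not compared, since probe sets differ in brightness. A lower level in every cell cannot be told apart from fewer cells that express a gene, since RNA of whole cultures was measured. A difference is called where limma's adjusted p is under 0.05 after Benjamini-Hochberg adjustment over all genes, and the error given is the standard error (SE) of that fit. Arrays of 1 group correlated across genes at 0.997 to 0.998, and arrays of different groups at 0.990 to 0.998. NFKB1, the gene of p105, stood at 7.14, 7.22 and 7.14 in shp105 cells with TMZ, against 7.50, 7.45 and 7.30 in shControl cells with TMZ. With DMSO it stood at 7.17, 7.27 and 7.16 in shp105 cells and 7.40, 7.23 and 7.34 in shControl cells. The line difference of NFKB1 was -0.25 (SE 0.072, adjusted p = 0.0204) with TMZ, which was called under 8 of 14 alternatives (adjusted p from 0.00505 to 0.565), and -0.12 (adjusted p = 0.260) with DMSO, which was not called. Of 5 markers of this line, VIM had group means of 14.73 to 14.81 and TNC of 11.53 to 11.78. CD44 averaged 12.63 in shp105 and 12.95 in shControl cells with TMZ, and 12.74 and 12.99 with DMSO. FN1 averaged 12.46 and 12.84 with TMZ, and 12.54 and 12.95 with DMSO. NES averaged 5.50 and 4.95 with TMZ, and 5.53 and 4.92 with DMSO. Of the 5, 2 were called lower in shp105 cells with TMZ (against 11% of all genes) and 2 with DMSO (against 11.6%), and 0 higher. Of 4 astrocyte markers, SLC1A3, a glutamate transporter, was lower in shp105 cells, with line differences of -0.59 with TMZ (adjusted p = 7.86e-05) and -0.59 with DMSO (adjusted p = 8.51e-05), while GFAP, at 5.05 to 5.21, S100B and AQP4 were not called. Of 16 markers of leukocytes, epithelium, endothelium, liver and fat, 8 (PTPRC, CD14, CDH1, CDH5, ALB, APOA1, ADIPOQ and LEP) had group means no higher than the 2.51 to 4.06 of 27 control probe sets for RNA absent from human cells. The other 8, among them CD3E, TTR and PLIN1, had group means of 3.83 to 6.18, and EPCAM was called lower in shp105 cells under both treatments. The part of these markers in the differences below was not tested.

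Between the lines, 14 of 29 members differed with TMZ and 15 with DMSO, mostly downward in shp105 cells. With TMZ, 10 members were lower in shp105 cells (34.5% of members, against 11% of all genes called lower) and 4 were higher (13.8%, against 10.1% of all genes called higher). With DMSO, 12 were lower (41.4%, against 11.6% of all genes) and 3 were higher (10.3%, against 8.34% of all genes). The median difference of the members was -0.072 with TMZ and -0.14 with DMSO, while that of all genes was -0.0078 with TMZ and -0.015 with DMSO. The arrays of the lines did not overlap for 16 members with TMZ (55.2%, against 35.7% of all genes) and 22 with DMSO (75.9%, against 35.9% of all genes). All members but MVD, TM7SF2 and FADS2 lay above the median level of all genes, while the shares of all genes also cover dimmer genes. Shares among genes of like level were not computed.

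Under both treatments 10 members were lower, which are ACAT2, IDI1, SQLE, MSMO1, NSDHL, SREBF2, INSIG1, ACACA, STARD4 and NPC1. FDPS and FADS2 were called lower with DMSO alone, which makes 12 in either. SCAP and ELOVL6 were higher under both, and 5 members were higher in either, with SC5D called with DMSO, and NPC2 and ABCA1 with TMZ. Of all genes, 8.19% were lower under both treatments and 6.60% were higher under both. The 2 line differences share no array, but they compare the same pair of lines and the same fitted spread. No member's line difference was shown to depend on the treatment, since the difference of the 2 line differences was called for 0 of 29 members. At an unadjusted p under 0.05, limma gave 2, DHCR7 and NPC1, against 6.4% of all genes.

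**Figure D1:**
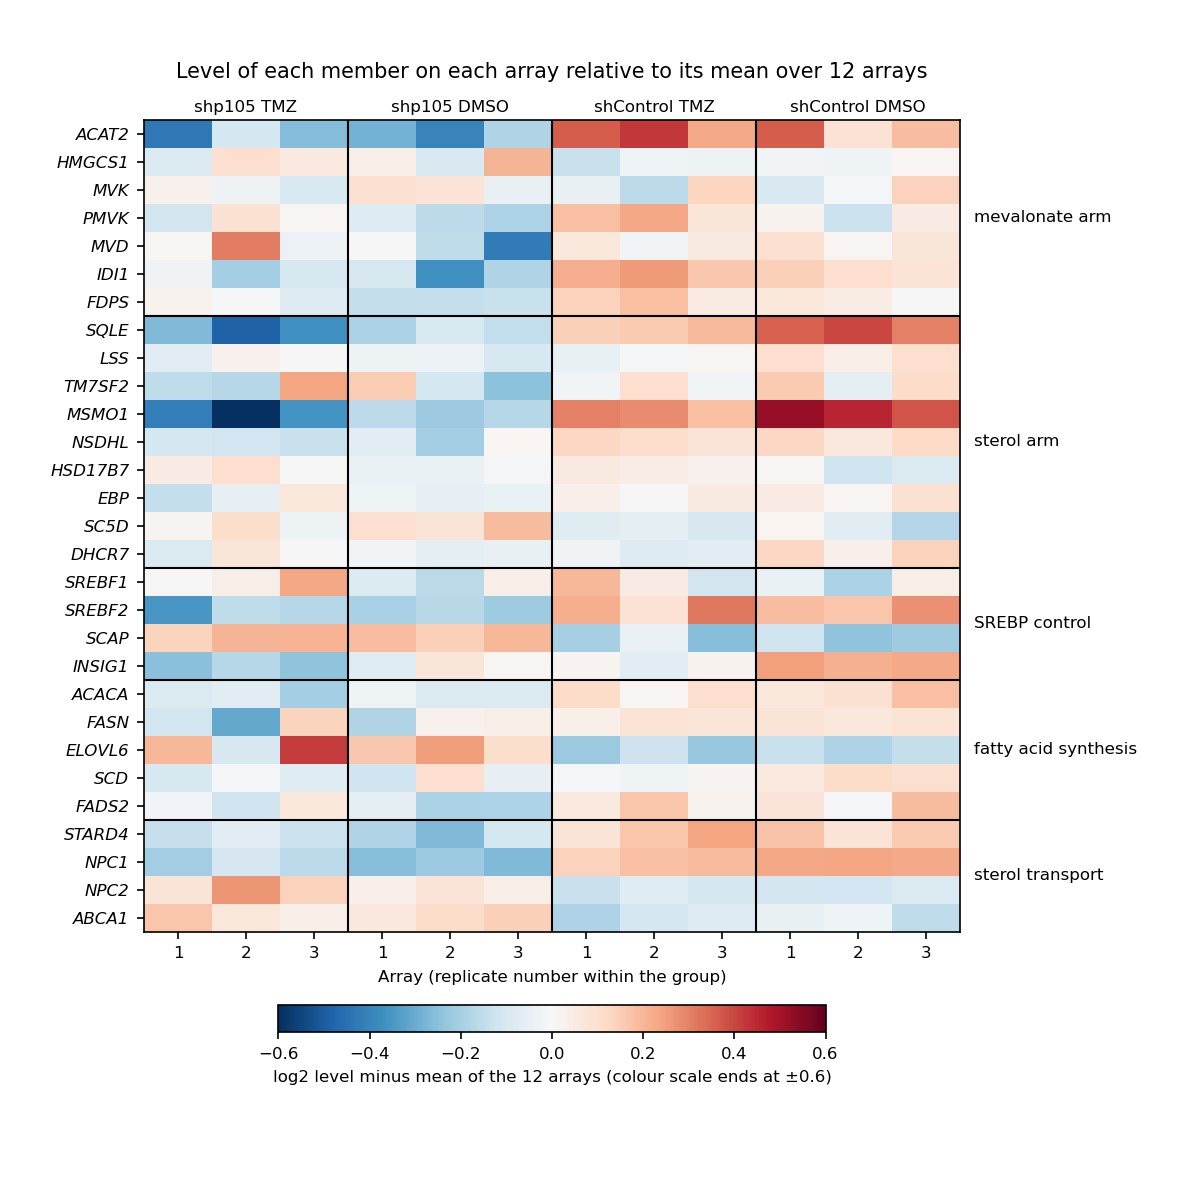
Level of each of the 29 measured members on each of the 12 arrays, as the log2 level minus that gene's mean over all arrays, with blue below and red above the mean. MSMO1, SQLE, ACAT2, SREBF2 and NPC1 are blue on all 6 shp105 arrays and red on all 6 shControl arrays, and SCAP and ELOVL6 run the other way but for ELOVL6 on 1 shp105 array.

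Control measurements also differed between the lines. The 18 hybridization spike-in probe sets averaged 11.32 ± 0.13 in shp105 cells with TMZ, against 10.95 ± 0.094 in shControl cells with TMZ, and 11.13 ± 0.10 in shp105 cells with DMSO, against 10.63 ± 0.050 in shControl cells with DMSO (SD, n = 3). The gap between the 3′ and 5′ probe sets of GAPDH, a measure of RNA integrity and labelling, was 0.372 to 0.439 in shp105 cells with TMZ, against 0.272 to 0.323 in shControl cells with TMZ, and 0.330 to 0.402 in shp105 cells with DMSO, against 0.221 to 0.270 in shControl cells with DMSO. The same gap of ACTB was 3.01 to 3.15 in shp105 cells with TMZ, against 2.78 to 2.94 in shControl cells with TMZ, and overlapped with DMSO, at 2.94 to 3.14 in shp105 cells, against 2.95 to 3.07 in shControl cells. When the spike-in level was added as a covariate, 22 of the measured members kept their sign with TMZ and 21 with DMSO. Among them were all 14 called with TMZ and all 15 called with DMSO. The median size of these called differences was then 0.33 with TMZ, against 0.32 without the covariate, and 0.34 with DMSO, against 0.32 without it. Single differences moved both ways. With DMSO, SREBF2 shrank from -0.40 to -0.25 and SC5D from 0.20 to 0.078, while IDI1 grew from -0.32 to -0.54 and ELOVL6 from 0.33 to 0.62. The covariate runs along the groups, and the standard error grew by 1.97 times with TMZ and 2.47 times with DMSO. SQLE and STARD4 then stayed called with TMZ (6.9% of members, against 5.28% of all genes called in that fit), and 0 members did with DMSO, against 2.64% of all genes. The part of RNA integrity in these differences was not tested.

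Of the mevalonate steps, the entry enzyme ACAT2 and the late enzyme IDI1 were lower in shp105 cells under both treatments and FDPS with DMSO, with 2 of 7 members called lower with TMZ and 3 of 7 with DMSO, and 0 called higher. ACAT2, the thiolase that joins 2 acetyl-CoA units at the entry of the pathway, stood at 7.71, 8.03 and 7.87 in shp105 cells with TMZ, against 8.50, 8.56 and 8.36 in shControl cells with TMZ. With DMSO its levels were 7.85, 7.73 and 7.95 in shp105 cells and 8.50, 8.22 and 8.32 in shControl cells. All shp105 arrays lay below all shControl arrays under both treatments. ACAT2 was 1.52-fold lower with TMZ, a difference of -0.60 (SE 0.098, adjusted p = 0.000882), and 1.41-fold lower with DMSO, at -0.50 (SE 0.098, adjusted p = 0.00321).

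IDI1, the isomerase that interconverts the 2 isoprenoid building units, stood at 9.94, 9.76 and 9.87 in shp105 cells with TMZ, against 10.18, 10.21 and 10.12 in shControl cells with TMZ. With DMSO the levels were 9.86, 9.59 and 9.78 in shp105 cells and 10.10, 10.06 and 10.04 in shControl cells. The lines did not overlap, and the line difference was -0.32 (SE 0.072, adjusted p = 0.00789) with TMZ and -0.32 (SE 0.072, adjusted p = 0.00754) with DMSO. The 4 probe sets of IDI1 did not run the same way, as described with the probe sets below, and their mean gave a line difference of 0.044 (adjusted p = 0.719) with TMZ and -0.0016 (adjusted p = 0.993) with DMSO.

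FDPS makes farnesyl diphosphate, the precursor of squalene. Its levels with TMZ were 10.28, 10.25 and 10.18 in shp105 cells and 10.39, 10.44 and 10.31 in shControl cells. The DMSO arrays read 10.12, 10.11 and 10.12 in shp105 cells and 10.32, 10.30 and 10.25 in shControl cells. Its lines were apart under both treatments by a small step, at -0.14 (SE 0.052, adjusted p = 0.0730) with TMZ, which was not called, and -0.17 (SE 0.052, adjusted p = 0.0339) with DMSO, which was called but lost its call without any 1 of the 6 DMSO arrays.

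Of the other mevalonate members none was called between the lines. HMGCS1, which makes HMG-CoA, averaged 7.26 ± 0.099 in shp105 cells with TMZ, against 7.18 ± 0.061 in shControl cells with TMZ (SD, n = 3 in each group here and below), a difference of 0.087 (95% interval -0.080 to 0.25), and with DMSO the difference was 0.059 (95% interval -0.11 to 0.23). For MVK, mevalonate kinase, it was -0.0084 with TMZ and 0.030 with DMSO. PMVK, the next kinase, differed by -0.16 (adjusted p = 0.138) with TMZ and -0.12 (adjusted p = 0.309) with DMSO, with overlapping arrays in both. MVD, the decarboxylase that follows, had low levels of 4.68 to 5.41 on the 12 arrays and differences of 0.064 with TMZ and -0.25 with DMSO.

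SQLE, MSMO1 and NSDHL were the sterol enzymes that were lower in shp105 cells under both treatments. With TMZ 3 of 9 members were lower and 0 higher, and with DMSO 3 were lower and 1 higher. MSMO1, the oxidase that removes the methyl groups at ring carbon C4, showed the widest line difference of all 29 members in both treatments. Its levels with TMZ were 8.75, 8.37 and 8.81 in shp105 cells, against 9.47, 9.45 and 9.35 in shControl cells. In DMSO these levels were 9.01, 8.95 and 9.00 in shp105 cells, against 9.69, 9.63 and 9.55 in shControl cells. Every shp105 array lay below every shControl array, and replicate 2 of shp105 with TMZ was the lowest of all. MSMO1 was 1.72-fold lower with TMZ, at -0.78 (SE 0.098, adjusted p = 0.000134), and 1.55-fold lower with DMSO, at -0.64 (SE 0.098, adjusted p = 0.000648).

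SQLE, squalene epoxidase, catalyses the first oxygen-dependent and a rate-limiting step of the sterol steps. Its levels were 8.41, 8.19 and 8.31 in shp105 cells with TMZ, against 8.82, 8.84 and 8.87 in shControl cells with TMZ. Under DMSO the levels were 8.49, 8.59 and 8.53 in shp105 cells and 9.03, 9.08 and 8.98 in shControl cells. The 4 groups formed 4 separate steps, lowest in shp105 cells with TMZ and highest in shControl cells with DMSO. The line difference was -0.54 (SE 0.061, adjusted p = 6.03e-05) with TMZ and -0.50 (SE 0.061, adjusted p = 0.000116) with DMSO, 1.45-fold and 1.41-fold lower in shp105 cells.

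NSDHL, the dehydrogenase that acts with MSMO1 in removing the C4 methyl groups, stood at 8.63, 8.62 and 8.60 in shp105 cells with TMZ and 8.86, 8.84 and 8.81 in shControl cells with TMZ. The DMSO arrays read 8.67, 8.53 and 8.75 in shp105 cells and 8.86, 8.80 and 8.85 in shControl cells. The lines were apart in both treatments, most narrowly with DMSO. The difference was -0.22 (SE 0.059, adjusted p = 0.0192) with TMZ and -0.19 (SE 0.059, adjusted p = 0.0412) with DMSO. Its call was lost without 1 array in 3 of 6 cases with TMZ and in 5 of 6 with DMSO.

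SC5D, the desaturase of a late sterol step, ran the other way, at 8.48, 8.56 and 8.43 in shp105 cells with TMZ against 8.39, 8.40 and 8.36 in shControl cells with TMZ. In DMSO these levels were 8.56, 8.54 and 8.65 in shp105 cells and 8.47, 8.40 and 8.28 in shControl cells. Its shp105 arrays lay above its shControl arrays under both treatments. The difference of 0.20 (SE 0.061, adjusted p = 0.0416) with DMSO was called, and that of 0.11 (SE 0.061, adjusted p = 0.269) with TMZ was not. Its DMSO call was lost without 1 array in 5 of 6 cases, and the mean of its 2 probe sets gave -0.011.

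The remaining 5 sterol members were called in neither treatment. LSS, which closes the sterol rings, averaged 10.64 ± 0.046 in shp105 cells with TMZ, against 10.63 ± 0.027 in shControl cells with TMZ, and 10.59 ± 0.036 in shp105 cells with DMSO, against 10.73 ± 0.037 in shControl cells with DMSO. Its line difference was 0.0017 with TMZ (95% interval -0.10 to 0.11) and -0.13 with DMSO (adjusted p = 0.0770). DHCR7, the reductase that completes cholesterol, likewise gave 0.048 with TMZ and -0.14 with DMSO (adjusted p = 0.114). For HSD17B7, the ketone reductase that acts with MSMO1 and NSDHL, the differences were 0.0091 with TMZ and 0.039 with DMSO. EBP, the sterol isomerase, gave -0.072 and TM7SF2, a sterol reductase, -0.050 with TMZ, and with DMSO EBP gave -0.088 and TM7SF2 -0.14.

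Promoter windows from RefSeq (GRCh38.p14) reach from 250 bases before to 50 after a gene's start, and 28 of the 32 listed genes had at least 1, all but ACAT2, SQLE, FDFT1 and FASN. Active SREBP factors bind sterol regulatory elements, often beside CCAAT boxes, bound by NF-Y, and GC boxes, bound by Sp1. The CCAAT box, the GC box with the letters GGGCGG, the sterol element core CACNCCAC and its longer form TCACNCCAC were searched on both strands, so that each match of the longer form is also a match of the core. CCAAT stood in at least 1 window of 20 of the 28 genes, against 34.6% of all 35116 promoters, and GGGCGG in 27 of 28, against 45.0% of promoters. CACNCCAC stood in 7 of 28 genes, ABCA1, ACACA, IDI1, INSIG1, SC5D, SCD and SREBF2, against 5.87% of promoters, and TCACNCCAC in SREBF2, against 1.13%. A gene with several starts had several chances to match, so these shares are a description. The first 3 windows shown belong to synthesis enzymes that were lower under both treatments. They are MSMO1 at chr4:165327419-165327718 on the plus strand, NSDHL at chrX:152830813-152831112 on the plus strand, and IDI1 at chr10:1048837-1049136 on the minus strand, which is 1 of 3 starts of IDI1. Capitals mark CCAAT and CACNCCAC on either strand.
MSMO1: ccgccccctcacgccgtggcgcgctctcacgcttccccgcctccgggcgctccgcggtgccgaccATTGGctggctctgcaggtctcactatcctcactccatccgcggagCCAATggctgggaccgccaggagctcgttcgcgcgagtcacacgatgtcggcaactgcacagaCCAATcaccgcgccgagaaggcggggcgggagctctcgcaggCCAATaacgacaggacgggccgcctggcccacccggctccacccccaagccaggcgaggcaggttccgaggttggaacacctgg
NSDHL: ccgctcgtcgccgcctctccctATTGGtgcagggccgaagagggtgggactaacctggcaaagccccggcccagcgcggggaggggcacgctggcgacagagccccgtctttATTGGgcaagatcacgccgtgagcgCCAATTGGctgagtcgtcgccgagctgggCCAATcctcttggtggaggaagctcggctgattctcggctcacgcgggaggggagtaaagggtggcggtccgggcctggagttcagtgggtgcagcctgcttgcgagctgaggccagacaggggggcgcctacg
IDI1: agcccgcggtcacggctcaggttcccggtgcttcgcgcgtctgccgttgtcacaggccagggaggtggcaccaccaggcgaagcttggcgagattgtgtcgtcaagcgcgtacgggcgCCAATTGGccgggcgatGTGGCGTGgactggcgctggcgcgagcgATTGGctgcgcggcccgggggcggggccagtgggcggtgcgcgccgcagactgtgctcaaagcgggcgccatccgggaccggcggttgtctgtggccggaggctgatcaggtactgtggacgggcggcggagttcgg
The MSMO1 window holds 4 copies of CCAAT, which 0.991% of all promoters reach, and the NSDHL window holds 5, which 0.359% reach. The IDI1 window shown holds 3 copies of CCAAT and 1 CACNCCAC. In the NSDHL window and this IDI1 window, 2 of the copies overlap in a run that reads as CCAAT on both strands. The IDI1 windows not shown hold 0 CACNCCAC, with 0 and 2 copies of CCAAT. The windows of ACACA, another synthesis enzyme lower under both treatments, are not shown. They hold 0, 1 and 2 copies of CCAAT, and the one with 2 holds 1 CACNCCAC. A match says nothing on whether a factor binds there.

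**Figure D2:**
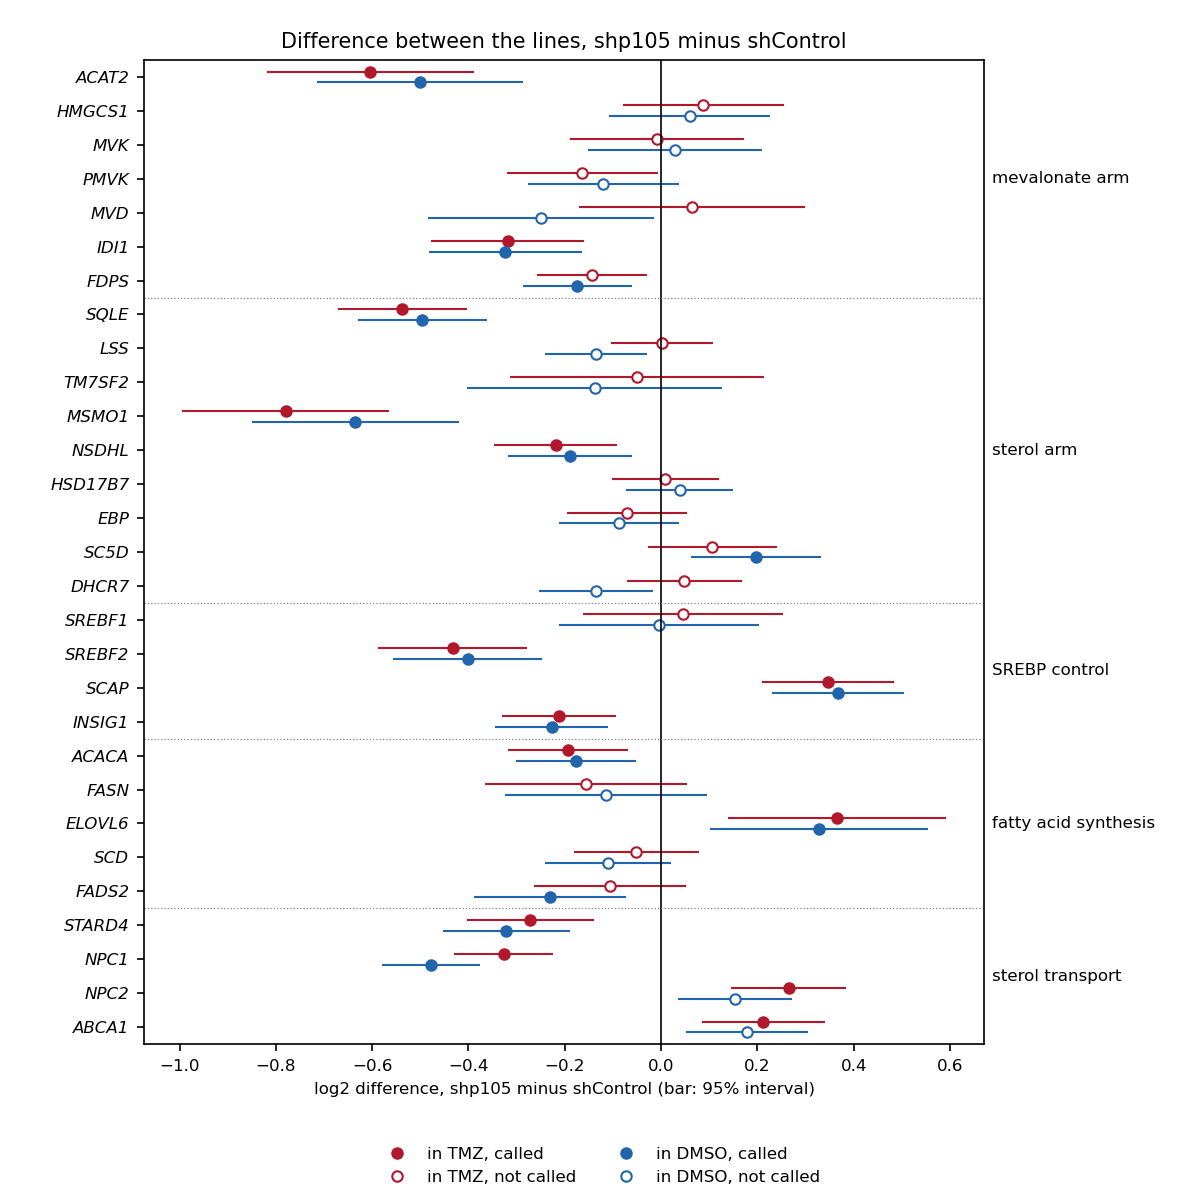
Difference between the lines, shp105 minus shControl, for each of the 29 measured members with TMZ (red) and with DMSO (blue), on the log2 scale. Bars are 95% intervals of the limma fit and filled points are called. MSMO1 lies farthest left at -0.78 with TMZ and -0.64 with DMSO, while SCAP (0.35 and 0.37) and ELOVL6 (0.36 and 0.33) lie to the right of 0.

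The 4 members that control the SREBP pathway moved in different directions. SREBF2 and INSIG1 were lower and SCAP was higher in shp105 cells under both treatments, while SREBF1 was not called. SREBF2, which encodes the factor that drives the cholesterol enzymes, stood at 7.19, 7.38 and 7.36 in shp105 cells with TMZ, against 7.75, 7.63 and 7.85 in shControl cells with TMZ. Under DMSO the levels were 7.34, 7.37 and 7.32 in shp105 cells, against 7.72, 7.70 and 7.81 in shControl cells. Its lines were clearly apart under both treatments, and its levels with TMZ and DMSO overlapped within each line. SREBF2 was 1.35-fold lower with TMZ, at -0.43 (SE 0.071, adjusted p = 0.000944), and 1.32-fold lower with DMSO, at -0.40 (SE 0.071, adjusted p = 0.00160).

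SCAP, the sterol-sensing escort of the SREBP precursors, stood at 9.14, 9.21 and 9.22 in shp105 cells with TMZ, against 8.81, 8.97 and 8.76 in shControl cells with TMZ. With DMSO its levels were 9.19, 9.15 and 9.21 in shp105 cells and 8.89, 8.77 and 8.79 in shControl cells. All 6 shp105 arrays lay above all 6 shControl arrays. SCAP was 1.27-fold higher with TMZ, at 0.35 (SE 0.063, adjusted p = 0.00183), and 1.29-fold higher with DMSO, at 0.37 (SE 0.063, adjusted p = 0.00129).

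INSIG1, which retains SCAP and the precursors in the endoplasmic reticulum, stood at 9.21, 9.30 and 9.22 in shp105 cells with TMZ and 9.48, 9.40 and 9.49 in shControl cells with TMZ. The DMSO arrays read 9.39, 9.54 and 9.48 in shp105 cells and 9.71, 9.68 and 9.69 in shControl cells. Within a treatment the lines were apart, while shp105 cells with DMSO lay at the level of shControl cells with TMZ. The line difference was -0.21 (SE 0.054, adjusted p = 0.0146) with TMZ and -0.23 (SE 0.054, adjusted p = 0.0104) with DMSO. The TMZ call was lost without replicate 1 or without replicate 3 of shControl with TMZ, and the DMSO call without replicate 1 of shp105 with DMSO. The TMZ call was also lost for the mean of its probe sets (-0.15, adjusted p = 0.0594) and when the fit held just these 2 groups (adjusted p = 0.0541).

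SREBF1, which encodes the factor of the fatty acid enzymes, was at 7.05, 7.08 and 7.28 in shp105 cells with TMZ and 7.24, 7.09 and 6.93 in shControl cells with TMZ. In DMSO these levels were 6.96, 6.88 and 7.08 in shp105 cells and 7.00, 6.85 and 7.08 in shControl cells. The lines overlapped, with differences of 0.046 (95% interval -0.16 to 0.25) with TMZ and -0.0042 (95% interval -0.21 to 0.20) with DMSO, so a SREBF1 difference of the size seen for SREBF2 lies outside both intervals.

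The promoter windows of SREBF2, at chr22:41832855-41833154 on the plus strand, and of INSIG1, at chr7:155297628-155297927 on the plus strand, are shown because both genes take part in the feedback of the pathway. They were added after their values had been seen, with the same letters in capitals.
SREBF2: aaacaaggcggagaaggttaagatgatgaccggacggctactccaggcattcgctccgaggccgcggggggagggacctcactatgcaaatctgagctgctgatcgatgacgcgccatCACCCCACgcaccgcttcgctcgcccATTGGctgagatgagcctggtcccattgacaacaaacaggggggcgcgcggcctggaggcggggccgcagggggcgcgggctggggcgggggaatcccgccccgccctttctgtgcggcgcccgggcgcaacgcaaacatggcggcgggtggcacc
INSIG1: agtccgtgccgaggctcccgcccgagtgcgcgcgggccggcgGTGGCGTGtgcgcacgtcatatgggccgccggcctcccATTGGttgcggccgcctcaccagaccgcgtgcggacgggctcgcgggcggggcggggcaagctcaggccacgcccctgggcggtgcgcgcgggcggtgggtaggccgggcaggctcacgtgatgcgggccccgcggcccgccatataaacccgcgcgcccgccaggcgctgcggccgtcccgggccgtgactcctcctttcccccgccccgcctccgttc
SREBF2 is the single listed gene whose window holds TCACNCCAC, here followed by 1 CCAAT on the other strand. The INSIG1 window holds 1 CACNCCAC and 1 CCAAT, both on the other strand. Windows of other members called under both treatments are not shown. Those of SCAP and ELOVL6, higher in shp105 cells, and of NPC1, lower, hold 0 CCAAT and 0 CACNCCAC. That of STARD4, lower, holds 2 copies of CCAAT and 0 CACNCCAC. Whether the motifs go with the direction of a line difference was not tested.

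**Figure D3:**
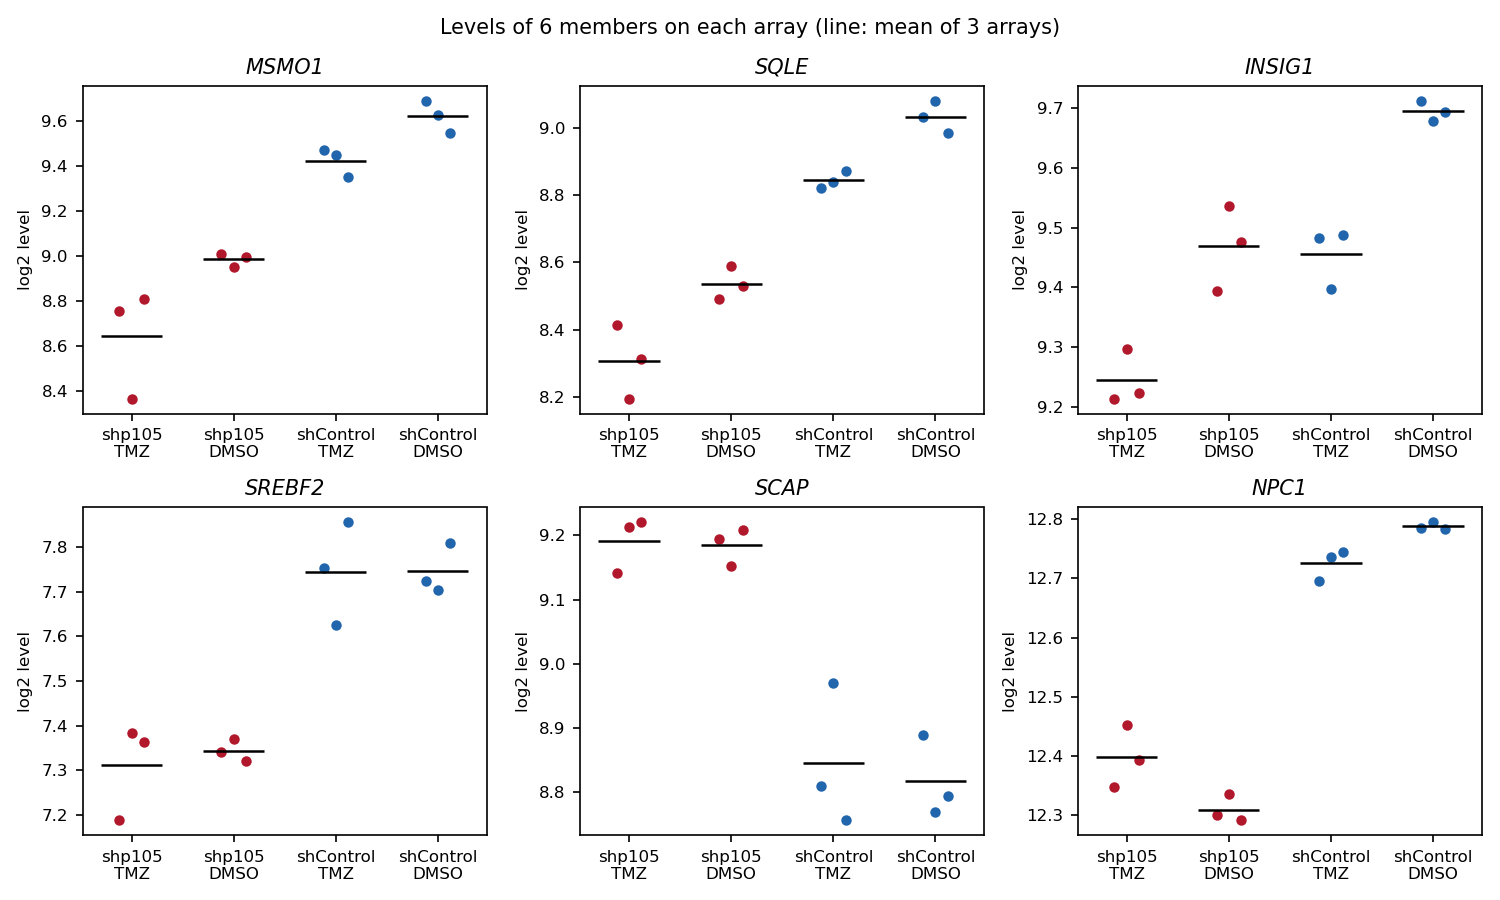
Log2 level of MSMO1, SQLE, INSIG1, SREBF2, SCAP and NPC1 on each array in the 4 groups, with a line at each mean of 3 arrays and red for shp105 and blue for shControl cells. The vertical axes differ between panels and do not start at 0. SQLE falls into 4 separate steps with means of 8.31, 8.54, 8.84 and 9.03, while in the SREBF2 and SCAP panels the lines are apart and the treatments overlap.

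Of the 5 fatty acid enzymes, 1 was lower and 1 higher in shp105 cells with TMZ, and 2 were lower and 1 higher with DMSO, and each of these calls was lost when some single arrays were left out. ELOVL6, the elongase of long saturated fatty acids, stood at 9.93, 9.63 and 10.15 in shp105 cells with TMZ, against 9.50, 9.61 and 9.50 in shControl cells with TMZ. Under DMSO the levels were 9.89, 9.98 and 9.83 in shp105 cells and 9.59, 9.54 and 9.59 in shControl cells. The lines were apart, though replicate 2 of shp105 with TMZ, at 9.63, lay next to the highest shControl array with TMZ, at 9.61. ELOVL6 was higher by 0.36 (SE 0.10, adjusted p = 0.0259) with TMZ and 0.33 (SE 0.10, adjusted p = 0.0446) with DMSO, and its DMSO call was lost without any 1 of the 6 arrays. The TMZ call was lost in 4 of 6 cases, and without replicate 3 of shp105 with TMZ the difference was 0.24. The mean of its 3 probe sets gave 0.18 with DMSO, which was called.

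ACACA, the acetyl-CoA carboxylase that commits carbon to fatty acids, was at 9.00, 9.02 and 8.88 in shp105 cells with TMZ and 9.20, 9.10 and 9.19 in shControl cells with TMZ. The DMSO arrays read 9.06, 9.00 and 9.00 in shp105 cells and 9.15, 9.18 and 9.27 in shControl cells. Its lines were separate by narrow gaps. The difference of -0.19 (SE 0.057, adjusted p = 0.0316) with TMZ lost its call without 1 array in 3 of 6 cases, and that of -0.18 (SE 0.057, adjusted p = 0.0492) with DMSO in 6 of 6.

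FADS2, a desaturase of polyunsaturated fatty acids, had low levels of 5.59, 5.49 and 5.67 in shp105 cells with TMZ and 5.66, 5.77 and 5.63 in shControl cells with TMZ. In DMSO these levels were 5.55, 5.42 and 5.42 in shp105 cells and 5.68, 5.60 and 5.80 in shControl cells. Its lines overlapped with TMZ and not with DMSO. The DMSO difference was -0.23 (SE 0.072, adjusted p = 0.0426), lost without 1 array in 4 of 6 cases and for the mean of its 2 probe sets (-0.11, adjusted p = 0.238), and the TMZ difference was -0.11 (SE 0.072, adjusted p = 0.363). FADS2, MVD and TM7SF2 lay between 4.68 and 5.80, near the 5.04 to 5.09 of the array medians.

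FASN, fatty acid synthase, averaged 8.36 ± 0.22 in shp105 cells with TMZ, against 8.52 ± 0.030 in shControl cells with TMZ, and its line difference was -0.16 (adjusted p = 0.302), which became -0.27 (adjusted p = 0.0371) and was called without replicate 3 of shp105 with TMZ. With DMSO the FASN difference was -0.11 (adjusted p = 0.497). SCD, the desaturase that makes oleic acid, averaged 9.62 ± 0.045 in shp105 cells with TMZ, against 9.67 ± 0.020 in shControl cells with TMZ. SCD differed by -0.051 with TMZ and -0.11 with DMSO, neither of which was called.

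The 4 sterol transport members split evenly with TMZ, with 2 lower and 2 higher, and 2 were lower and 0 higher with DMSO. NPC1, the lysosomal membrane protein that exports cholesterol taken up from lipoproteins, stood at 12.35, 12.45 and 12.39 in shp105 cells with TMZ, against 12.70, 12.74 and 12.74 in shControl cells with TMZ. Under DMSO the levels were 12.30, 12.34 and 12.29 in shp105 cells and 12.79, 12.79 and 12.78 in shControl cells. The replicates of NPC1 were tight and the lines were far apart. NPC1 was 1.25-fold lower with TMZ, at -0.33 (SE 0.047, adjusted p = 0.000348), and 1.39-fold lower with DMSO, at -0.48 (SE 0.047, adjusted p = 1.83e-05), the smallest adjusted p of any member with DMSO.

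NPC2, the soluble lysosomal protein that hands cholesterol to NPC1, stood at 12.31, 12.49 and 12.37 in shp105 cells with TMZ, against 12.10, 12.16 and 12.12 in shControl cells with TMZ. The DMSO arrays read 12.26, 12.31 and 12.27 in shp105 cells and 12.12, 12.11 and 12.14 in shControl cells. Its shp105 arrays lay above its shControl arrays in both treatments, opposite to NPC1. The difference of 0.26 (SE 0.054, adjusted p = 0.00420) with TMZ was called, and that of 0.15 (SE 0.054, adjusted p = 0.0714) with DMSO was not.

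STARD4, a cytosolic sterol carrier and SREBP target, was at 8.48, 8.55 and 8.49 in shp105 cells with TMZ, against 8.70, 8.78 and 8.85 in shControl cells with TMZ. In DMSO these levels were 8.44, 8.35 and 8.51 in shp105 cells and 8.79, 8.70 and 8.78 in shControl cells. The lines did not overlap. STARD4 was lower, at -0.27 (SE 0.060, adjusted p = 0.00681) with TMZ and -0.32 (SE 0.060, adjusted p = 0.00245) with DMSO.

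ABCA1, the exporter that loads cholesterol onto lipoproteins and is induced by oxysterols, was at 9.83, 9.73 and 9.70 in shp105 cells with TMZ, against 9.48, 9.56 and 9.59 in shControl cells with TMZ. Under DMSO the levels were 9.73, 9.78 and 9.81 in shp105 cells and 9.62, 9.64 and 9.51 in shControl cells. All shp105 arrays lay above the shControl arrays of the same treatment. The difference of 0.21 (SE 0.058, adjusted p = 0.0216) with TMZ was called, though not without replicate 1 of shp105 with TMZ or replicate 1 of shControl with TMZ, and that of 0.18 (SE 0.058, adjusted p = 0.0502) with DMSO just missed the threshold.

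Several members are read by more than 1 probe set, 19 of 29, with 66 probe sets in all. For the comparison of probe sets, p was adjusted over 41097 probe sets. Of the called members with several probe sets, all probe sets had the same sign for 6 of 9 with TMZ and for 5 of 10 with DMSO. IDI1 was the member with a probe set called in the opposite direction. Its 2 bright probe sets, at mean levels of 9.96 and 9.91, were lower, at -0.32 and -0.36 with TMZ and at -0.32 and -0.31 with DMSO, while a dimmer one at 7.39 was higher by 0.29 with TMZ and 0.28 with DMSO. The faintest, at 5.21, gave 0.56 with TMZ, which was called, and 0.35 with DMSO. In the manufacturer's naming, the suffix x of both bright probe sets and of the one at 7.39 marks probes that can also bind other transcripts. The only probe set of HSD17B7 carries the same suffix. Which transcripts these probe sets read was not analysed here.

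The 4 probe sets of SQLE and the 4 of NPC1 had negative line differences throughout. A second NPC1 probe set, at a mean level of 7.70, was lower, at -0.58 with TMZ and -0.65 with DMSO, a wider step than that of the brightest one. For SREBF2, the second probe set differed by -0.23 with TMZ, which was not called, and by -0.36 with DMSO, which was, and the third by 0.062 with TMZ and 0.0051 with DMSO. EBP and SCD, uncalled on their brightest probe sets, each had 1 dimmer probe set that was higher with TMZ, by 0.38 for EBP and 0.30 for SCD.

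**Figure D4:**
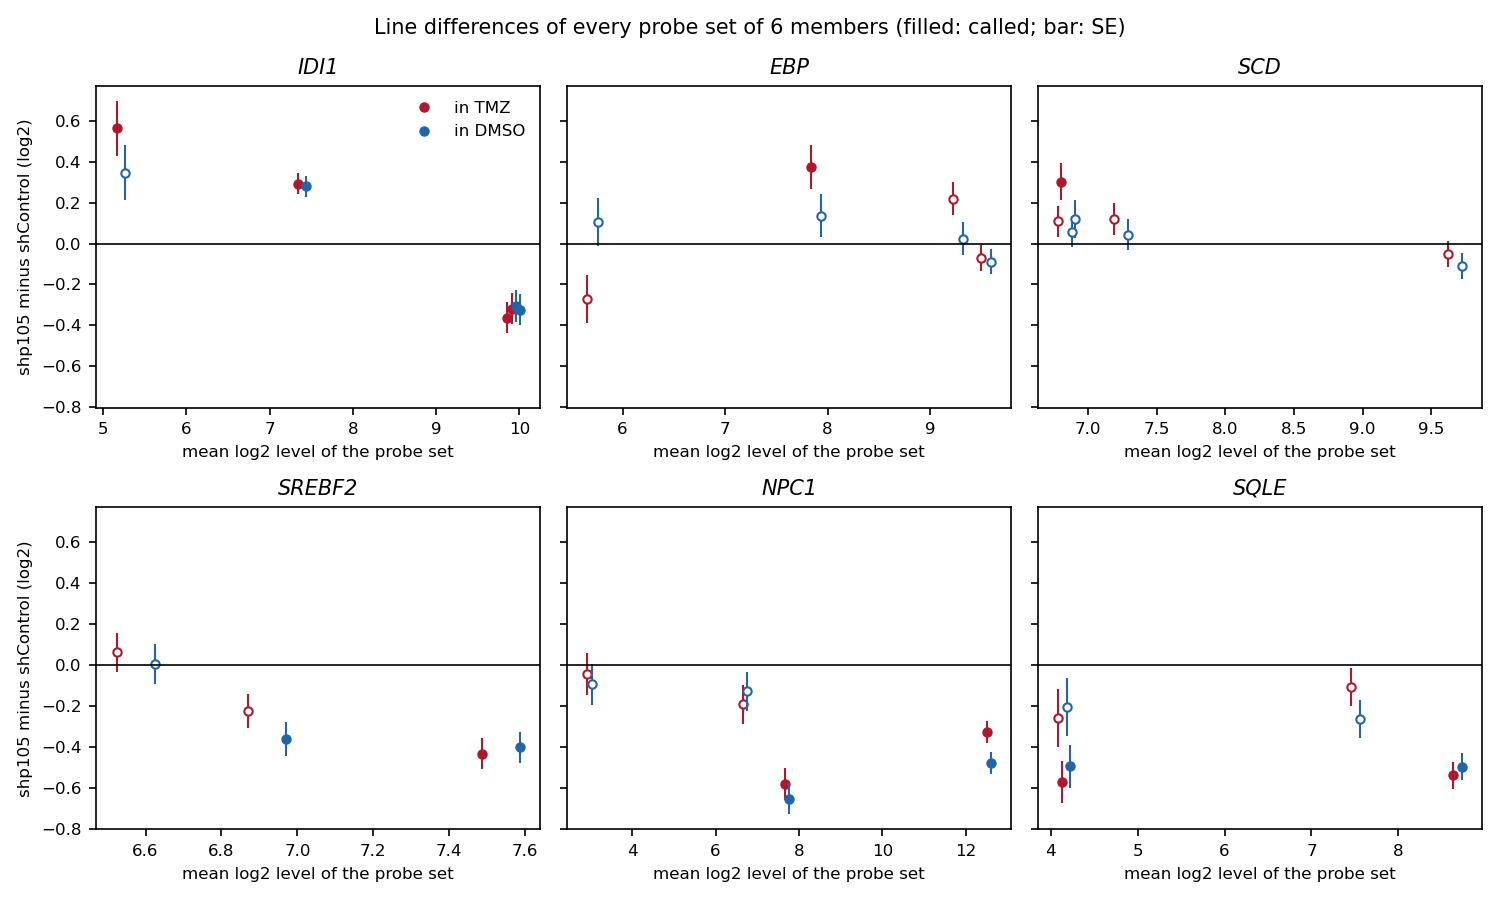
Line difference, shp105 minus shControl, of every probe set of 6 members against the mean log2 level of that probe set, with TMZ in red and DMSO in blue (horizontally offset), filled where called and with bars for the SE. IDI1 splits into 2 bright probe sets near -0.32 and 2 dimmer ones above 0, while all probe sets of NPC1 and SQLE lie below 0.

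Among 33 other genes of sterol and fatty acid metabolism listed beside the members, 28 were measured. With TMZ 2 were called higher and 4 lower in shp105 cells, with 22 not called, against 10.1% of all genes higher and 11% lower. With DMSO 2 were called higher and 5 lower, with 21 not called, against 8.34% of all genes higher and 11.6% lower. The genes named next have the smallest p of those called in each treatment. A value given for a single treatment shows no dependence on the treatment. SOAT1, which esterifies cholesterol for storage, was higher by 0.73 (SE 0.065, adjusted p = 8.34e-06) with TMZ and 0.62 (SE 0.065, adjusted p = 2.99e-05) with DMSO. CH25H, which makes 25-hydroxycholesterol, was lower, at -0.50 (SE 0.093, adjusted p = 0.00226) with TMZ and -0.65 (SE 0.093, adjusted p = 0.000376) with DMSO. MBTPS2, the Golgi protease that completes the release of SREBP, was lower, at -0.36 (SE 0.047, adjusted p = 0.000178) with TMZ. ERG28, a scaffold of sterol C4 demethylation, was lower, at -0.28 (SE 0.045, adjusted p = 0.000873) with DMSO.

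After 16 h of TMZ no member was called in either line. In shp105 cells 0 of 29 members were called higher and 0 lower, while 0.647% of all genes were called higher and 0.217% lower. In shControl cells 0 of 29 were called in either direction, while 0.253% of all genes were called higher and 0.116% lower. At an unadjusted p under 0.05, limma gave 5 members in shp105 cells (17.2%, against 16.3% of all genes) and 4 in shControl cells (13.8%, against 11% of all genes), shares near those of all genes. The fit with trend and robust variances called 3 members in shp105 cells (10.3%, against 4.74% of all genes) and 1 in shControl cells (3.45%, against 1.81% of all genes). The median response of the members was 0.0066 in shp105 cells and -0.021 in shControl cells, against 0.014 and -0.0031 for all genes. TMZ and DMSO arrays did not overlap for 6 members in shp105 cells (20.7%, against 20.4% of all genes) and for 10 in shControl cells (34.5%, against 20.3% of all genes).

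INSIG1 came closest to the threshold, with the levels given above. In each line its 3 TMZ arrays lay below its 3 DMSO arrays. The response was -0.22 (SE 0.054, unadjusted p = 0.00142, adjusted p = 0.0729) in shp105 cells and -0.24 (SE 0.054, unadjusted p = 0.000879, adjusted p = 0.115) in shControl cells. For SQLE, also without overlap in either line, it was -0.23 (SE 0.061, adjusted p = 0.0970) in shp105 cells and -0.19 (SE 0.061, adjusted p = 0.284) in shControl cells. MSMO1 gave -0.34 (SE 0.098, adjusted p = 0.119) in shp105 cells and -0.20 (SE 0.098, adjusted p = 0.494) in shControl cells. These 3 genes are the members that the fit with trend and robust variances called in shp105 cells, and INSIG1 the 1 it called in shControl cells.

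The responses of SREBF2 and SCAP lay close to 0. SREBF2 responded by -0.032 (95% interval -0.19 to 0.12) in shp105 cells and -0.0010 (95% interval -0.16 to 0.15) in shControl cells. SCAP gave 0.0066 in shp105 cells and 0.027 in shControl cells, and SREBF1 gave 0.16 and 0.11. Over all members the 95% intervals reached from -0.56 to 0.52 in shp105 cells and from -0.41 to 0.34 in shControl cells. Responses beyond a log2 change of 0.56 in size therefore lie outside every interval. That bound is the one of MSMO1 in shp105 cells, and the intervals of the other members reached less far. For NPC1 in shp105 cells, the interval was -0.014 to 0.19. The intervals of INSIG1 and SQLE, which are not adjusted for the number of genes, lay below 0 in both lines.

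**Figure D5:**
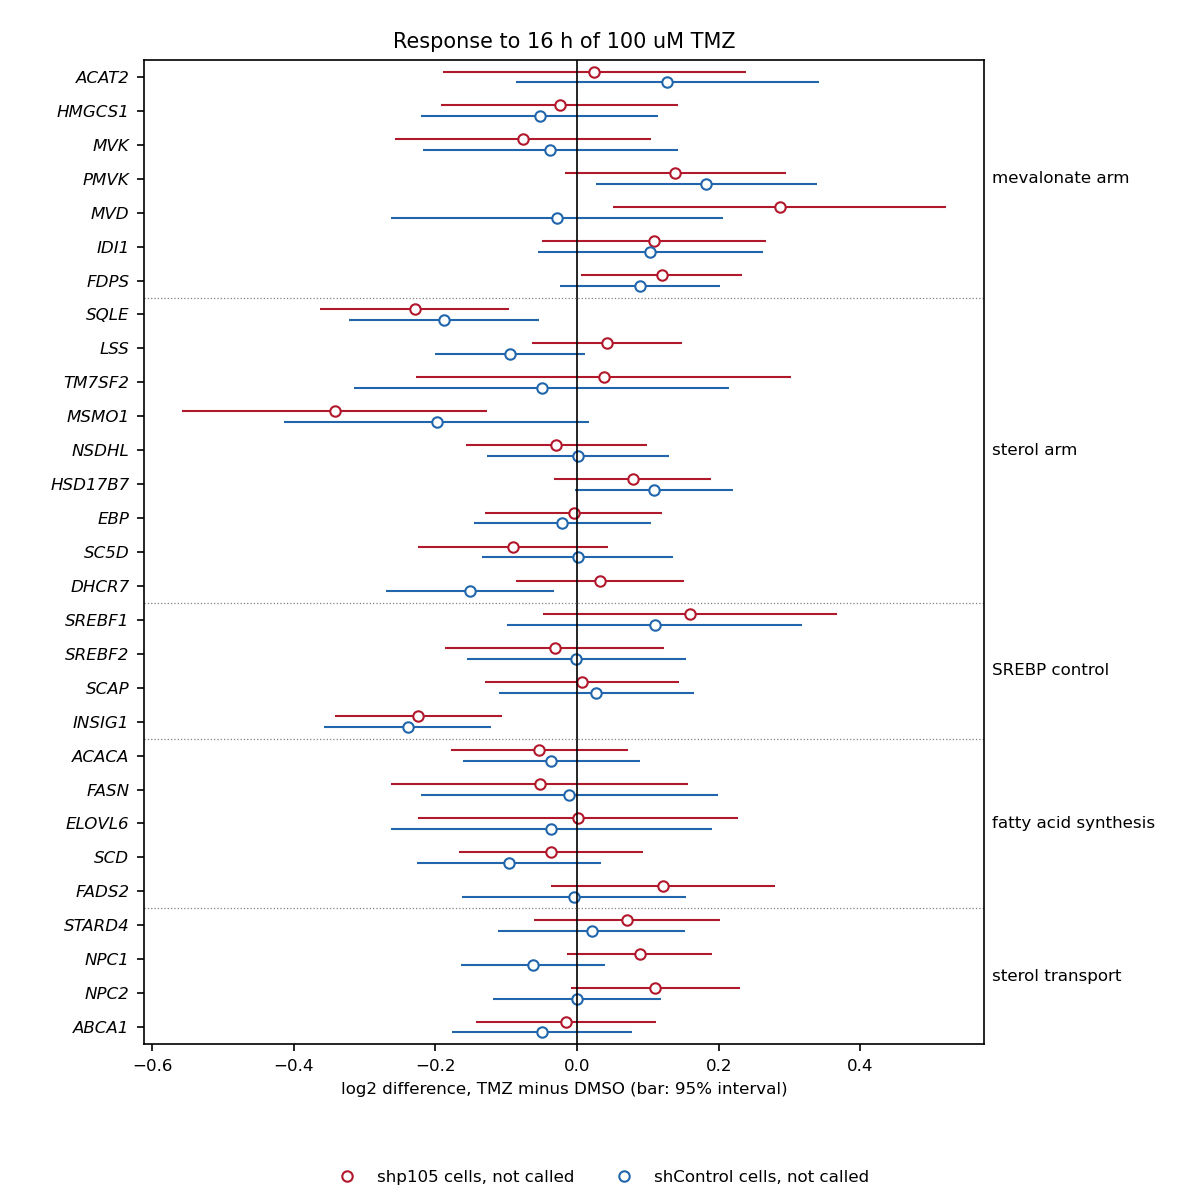
Response to 16 h of 100 uM TMZ, TMZ minus DMSO, for each of the 29 measured members in shp105 cells (red) and shControl cells (blue), on the log2 scale with 95% intervals of the limma fit. All points are open because none was called. INSIG1 and SQLE have intervals below 0 in both lines.

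Averaging the TMZ responses of both lines, a comparison added after the separate responses had been seen, called 2 of 29 members lower (6.90%, against 1.53% of all genes called lower) and 0 higher (against 1.84% of all genes called higher). INSIG1 averaged 9.35 with TMZ and 9.58 with DMSO, a response of -0.23 (SE 0.038, adjusted p = 0.0101). SQLE averaged 8.58 with TMZ and 8.78 with DMSO, a response of -0.21 (SE 0.043, adjusted p = 0.0263). MSMO1 missed the threshold at -0.27 (SE 0.069, adjusted p = 0.0585), and PMVK had the largest positive value at 0.16 (SE 0.051, adjusted p = 0.107). The INSIG1 call held without any 1 of the 12 arrays and was lost with the spike-in covariate (-0.18, adjusted p = 0.611), and the SQLE call was lost in 8 of the 12 cases. Control measurements moved with TMZ too. In shControl cells the spike-in level was 10.84 to 11.01 with TMZ, against 10.57 to 10.67 with DMSO, and the GAPDH gap given above did not overlap, while in shp105 cells both overlapped between the treatments. Neither call held when a gene's probe sets were averaged, which gave -0.079 (adjusted p = 0.327) for INSIG1 and -0.038 (adjusted p = 0.692) for SQLE. The dimmer probe sets of INSIG1 gave -0.089 and 0.084.

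The responses to TMZ were not shown to differ between the lines for any member. The difference of the responses, shp105 minus shControl, was called for 0 of 29 members, with 0% of all genes called higher and 0% lower by limma, and at an unadjusted p under 0.05 it gave 2 members and 1266 of all genes. DHCR7 had the smallest p, with a response of 0.032 in shp105 cells and -0.15 in shControl cells and a difference of 0.18 (SE 0.077, unadjusted p = 0.0352, adjusted p = 0.769). NPC1 followed with 0.088 in shp105 cells and -0.062 in shControl cells, a difference of 0.15 (unadjusted p = 0.0421, adjusted p = 0.773). For INSIG1 the difference was 0.015 (95% interval -0.15 to 0.18), and for SQLE -0.042 (95% interval -0.23 to 0.15).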

How the data were processed

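The authors deposited a log2 level for each probe set on each array, made with RMA and Affymetrix Power Tools, per the submitters' processing notes. Of versions, genome build and filters, nothing is given in the sources used here. Of 54675 probe sets, 41097 had exactly 1 gene symbol after update through RefSeq gene annotation (GRCh38.p14), 1801 had several and 11777 none. The probe set with the highest mean over the 12 arrays stood for a gene, which gave 19775 genes. limma's lmFit and eBayes were fitted to the 4 group means over all 12 arrays, with 2-sided tests and Benjamini-Hochberg adjustment over all genes. No pair of arrays held identical values. The number of arrays limits the precision.

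The members, the other lists and the tests were chosen with earlier results of these data known, and the TMZ response averaged over both lines was added later. Named were all members, with array values for those called in any comparison and for SREBF1, SREBF2, SCAP and INSIG1, and the 3 called genes of smallest p of the wider pathway list in the line comparisons. The fit was tested on simulated data. Alternatives were averaging a gene's probe sets, a filter on dim genes, quantile normalization, median centring, eBayes with trend and robust fitting, only the compared groups, the replicate number as a block, the spike-in level as a covariate, and each array left out. Tables were made in R 4.3.3 (limma 3.58.1; data.table, version 1.17.8) and in Python 3.11.15 (pandas 2.3.3, numpy 2.4.6), and plots with matplotlib 3.10.9.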

Additional observations from a re-analysis of the deposited data

How the results depend on the processing

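The line differences of ACAT2, SQLE, MSMO1, SREBF2, SCAP, STARD4 and NPC1 kept their direction under all alternatives run, and lost a call only with the spike-in covariate, except that SREBF2 with TMZ was also lost for the mean of its probe sets (-0.20, adjusted p = 0.0515). Of the counts of calls, those between the lines moved most with the spike-in covariate. When the fit held just the 2 groups compared, the TMZ calls of INSIG1, ACACA, ELOVL6 and ABCA1 and the DMSO calls of FDPS, NSDHL, SC5D, ACACA and FADS2 were lost. With DMSO, the 3 members called higher became 5 without dim genes, 5 with quantile normalization, 5 with trend and robust fitting, 1 with median centring, 1 with the replicate block, 0 with the spike-in covariate and 1 to 2 with an array left out. The 12 called lower became 0 with the spike-in covariate and 8 to 9 with an array left out. With TMZ, the 4 called higher became 2 with only the compared groups, 0 with the spike-in covariate and 2 to 4 with an array left out, and the 10 called lower became 2 with the spike-in covariate and 7 to 10 with an array left out.

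For the TMZ response, members called lower in shp105 cells numbered 3 without dim genes and 3 with trend and robust fitting, and in shControl cells to 1 under each of these. For the response averaged over both lines, the 2 called lower became 0 for the mean of probe sets, 1 with the replicate block, 0 with the spike-in covariate and 1 to 3 with an array left out, and 2 were called higher (PMVK and FDPS) without dim genes and 2 with trend and robust fitting. The mean of probe sets turned the sign of SC5D with DMSO (-0.011) and of IDI1 with TMZ (0.044). Among values called in neither setting, 204 changed sign.

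The labels number the replicates and do not say whether equal numbers pair the samples. Deviations of arrays with the same number correlated at -0.11 to 0.12 over 12 pairs, with 2 pairs over 0.1. These values cannot decide whether arrays with the same number were handled together. With the number as a block, 24 of 31 calls were kept and 7 lost. The difference of responses could not be fitted with only the compared groups, since it uses all 4. Low signal limits MVD, TM7SF2 and FADS2, which the filter on dim genes left out.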
